A study of Mus musculus with 3 samples.

Results

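The genes described here encode the mitogen-activated protein (MAP) kinase cascade, and the data are the Isl1 chromatin immunoprecipitation sequencing (ChIP-Seq) peaks assigned to them. After identical repeated lines of the deposited list were dropped, peaks whose gene symbol begins with Mapk, Map2k, Map3k or Map4k were kept, which gave 49 of 14082 peaks and 39 of 9313 listed gene symbols. Isl1 is a transcription factor with LIM domains and a homeodomain that marks progenitors of the second heart field. Chromatin was taken from cardiac progenitor cells (CPCs) at day 5 of directed differentiation of an E14 mouse embryonic stem cell line that carries the transgene Tg(Nkx2-5-EmGFP), an emerald green fluorescent protein reporter of the early cardiac gene Nkx2-5. There were 2 samples immunoprecipitated with an Isl1 antibody and 1 sample of input, chromatin kept before the pulldown, all from the same line and day. The authors combined both immunoprecipitations into 1 list of shared peaks without scores or read numbers. Depth is therefore unknown, no error between replicates can be given, a peak carries no measure of strength, and every interval below is a 95% Wilson interval that covers counting error only. The list holds no expression values, so neither the identity of the cells nor the activity of these genes could be checked.

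In the cascade a MAP3K phosphorylates a MAP2K, which phosphorylates a MAP kinase, and MAP4Ks act above the MAP3Ks in some settings. The classical branches end in the ERK kinases, which relay growth factor signals, and in the JNK and p38 kinases, which relay stress and cytokine signals, while ERK5 forms a branch of its own. FGF and other receptor signals reach early mesoderm and heart progenitors through the ERK branch. Gene symbols follow the levels of the cascade, so the members were grouped as Map4k, Map3k, Map2k and Mapk genes, with all other symbols of the family (substrate kinases, scaffolds and similarly named genes) called partners.

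Sequences from the start sites where most of these peaks lay are shown first, because 31 of the 49 peaks lay there. Each is the 150 bases before the annotated gene start inside an Isl1 peak, read 5′ to 3′ on the strand of the gene from mm9, with the GC box GGGCGG or its reverse complement CCGCCC in capitals. The Map3k5, Map2k5 and Mapk11 windows were taken because, by GENCODE and not by the deposited distance, their peak midpoints lay nearest to the 5′ end of the gene at the Map3k, Map2k and Mapk levels (-37, 117 and 75 bp), and Map2k1 was added as a kinase of the ERK branch. They lie at chr10:19654128-19654277 (plus strand), chr9:63225660-63225809 (minus strand), chr9:64101439-64101588 (minus strand) and chr15:88980037-88980186 (minus strand).
Map3k5: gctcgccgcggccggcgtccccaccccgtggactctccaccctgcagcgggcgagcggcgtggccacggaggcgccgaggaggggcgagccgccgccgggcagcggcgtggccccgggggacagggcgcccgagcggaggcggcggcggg
Map2k5: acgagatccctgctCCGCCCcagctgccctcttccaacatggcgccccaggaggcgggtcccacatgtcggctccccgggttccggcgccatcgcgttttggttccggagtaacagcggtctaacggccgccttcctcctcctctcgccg
Map2k1: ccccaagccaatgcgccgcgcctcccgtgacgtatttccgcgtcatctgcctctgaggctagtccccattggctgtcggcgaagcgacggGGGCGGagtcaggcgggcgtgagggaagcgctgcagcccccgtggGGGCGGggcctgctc
Mapk11: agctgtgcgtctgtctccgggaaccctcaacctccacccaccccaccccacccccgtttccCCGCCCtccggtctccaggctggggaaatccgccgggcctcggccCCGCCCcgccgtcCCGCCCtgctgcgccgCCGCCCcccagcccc
Their GC content ran from 68% at Map2k5 to 84.7% at Map3k5. The window of Mapk11 held 4 GC boxes, that of Map2k1 2 and that of Map2k5 1, whereas the Map3k5 window held 0. Over all protein-coding gene starts of the GENCODE annotation, 35.6% of windows of this length held the string on either strand, against 33 of 55 family genes. These were 22 of the 34 family genes with a peak of any symbol within 1 kb of a start (64.7%) and 11 of the 21 without (52.4%).

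The question of which parts of the cascade carried Isl1 peaks was addressed by counting genes at each level. Of 55 family symbols in RefSeq, 39 (70.9%, interval 57.9% to 81.2%) had at least 1 assigned peak, beside 37.5% of all protein-coding genes. A peak within 1 kb of the assigned transcription start site (TSS) was present at 31 family genes (56.4%, interval 43.3% to 68.6%), beside 23.2% of protein-coding genes. By level, a peak was assigned to 3 of 5 Map4k genes, 13 of 18 Map3k genes, 5 of 7 Map2k genes, 11 of 13 Mapk genes and 7 of 12 partners. The intervals of the levels overlapped, from 23.1% to 88.2% for Map4k and 57.8% to 95.7% for Mapk, so the order of the levels is not resolved by these numbers. Among the branches below the MAP3Ks, peaks were assigned to 3 of 4 genes of the ERK branch, 5 of 6 of the p38 branch, 4 of 5 of the JNK branch, 1 of 2 of the ERK5 branch and all 3 atypical MAP kinases.

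**Figure D1:**
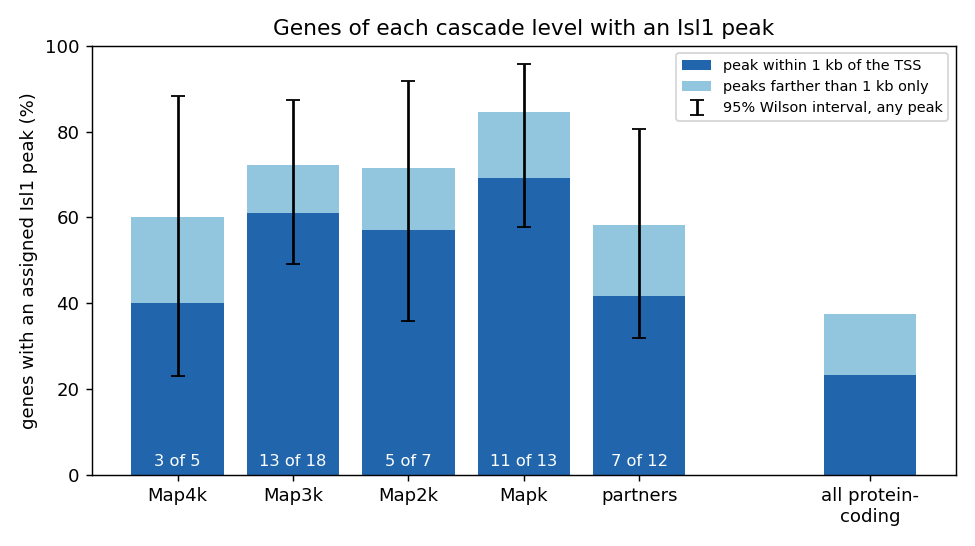
Percentage of genes with an assigned Isl1 peak (y axis) at each cascade level and over all protein-coding genes (x axis). Dark bars count genes with a peak within 1 kb of the TSS, light bars add genes with farther peaks only, and black lines are 95% Wilson intervals for any peak. The shares run from 58.3% in the partners to 84.6% in the Mapk genes, beside 37.5% of all protein-coding genes, and the intervals of the levels overlap.

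Peaks per gene were compared next. Of the 39 genes, 30 had 1 peak, 8 had 2 and 1 (Mapk8) had 3, so 9 genes had more than 1 peak, beside 29% of all listed genes. The mean was 1.26 ± 0.50 peaks (SD over 39 genes), against 1.51 ± 1.08 over all 9313 listed symbols. It was 1.67 for 3 Map4k genes, 1.23 for 13 Map3k genes, 1.40 for 5 Map2k genes and 1.18 for 11 Mapk genes, and 7 partners shared 8 peaks. SDs lay between 0.38 and 0.60, and every level held genes with 1 peak and genes with more, so the ranges of the levels overlapped. No gene approached the largest number in the list, which was 12.

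Distance to the TSS was compared in classes. Within 1 kb of the TSS lay 31 of 49 member peaks (63.3%, interval 49.3% to 75.3%), beside 38.5% of all peaks. Between 1 and 10 kb lay 4 member peaks (8.16%), beside 10.5%. Farther than 10 kb lay 14 (28.6%, interval 17.8% to 42.4%), beside 51.1%, and 4 of these were more than 100 kb away (8.16%), beside 23% of all peaks. The peaks within 1 kb numbered 2 of 5 for Map4k, 11 of 16 for Map3k, 4 of 7 for Map2k, 9 of 13 for Mapk and 5 of 8 for partners, and those beyond 10 kb numbered 3, 4, 2, 3 and 2. The median absolute distance was 329 bp in the family and 11597 bp in the whole list. On either side of the 1 kb boundary, the closest values were 682 bp for Map3k21 and 1233 bp for Map3k11.

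**Figure D2:**
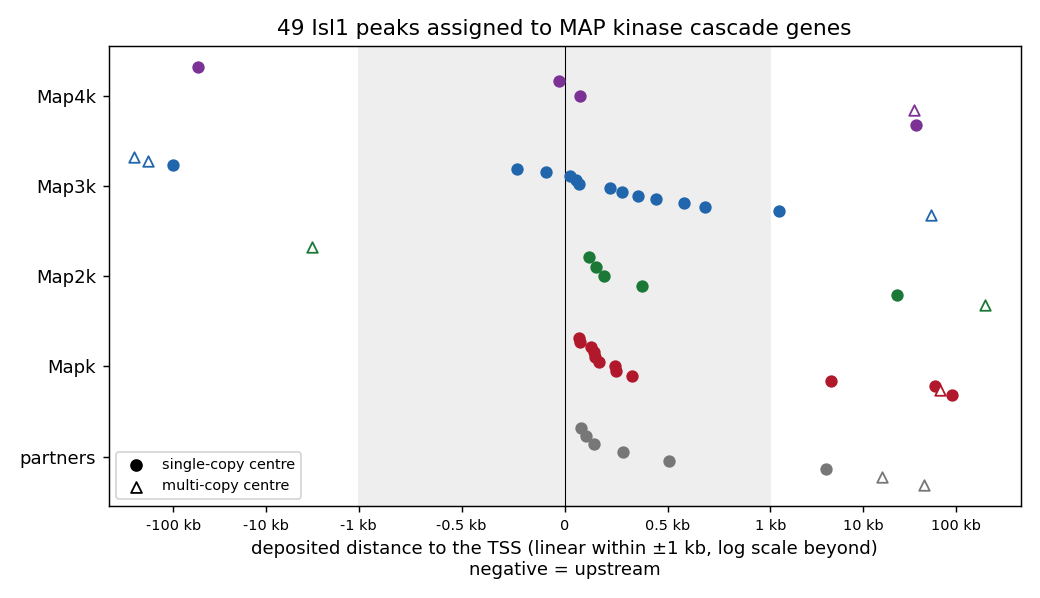
Signed distance of each of the 49 peaks to its assigned TSS (x axis, linear within ±1 kb and logarithmic beyond, negative upstream) by cascade level (y axis). Filled circles have a single-copy centre and open triangles a multi-copy centre. The 31 peaks in the grey band are all single-copy, and 28 of them lie downstream of the TSS.

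Peaks at start sites were mostly centred just inside the gene. Of the 31 peaks within 1 kb, 28 (90.3%, interval 75.1% to 96.7%) had a midpoint downstream of the TSS, beside 80.9% of all peaks in this class. The 3 upstream were Map4k4 at -28 bp, Map3k5 at -91 bp and Map3k3 at -233 bp. The median was 150 bp downstream in the family and 152 bp in all peaks within 1 kb, and 30 of the 31 peaks spanned the TSS itself, with Map3k21 as the exception. By GENCODE annotation, 14 of these midpoints fell in a UTR, 10 in a coding exon, 5 in an intron and 2 in intergenic sequence. In all peaks within 1 kb the shares were 39.5% for UTRs, 24% for coding exons, 23% for introns and 10.9% for intergenic sequence.

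**Figure D3:**
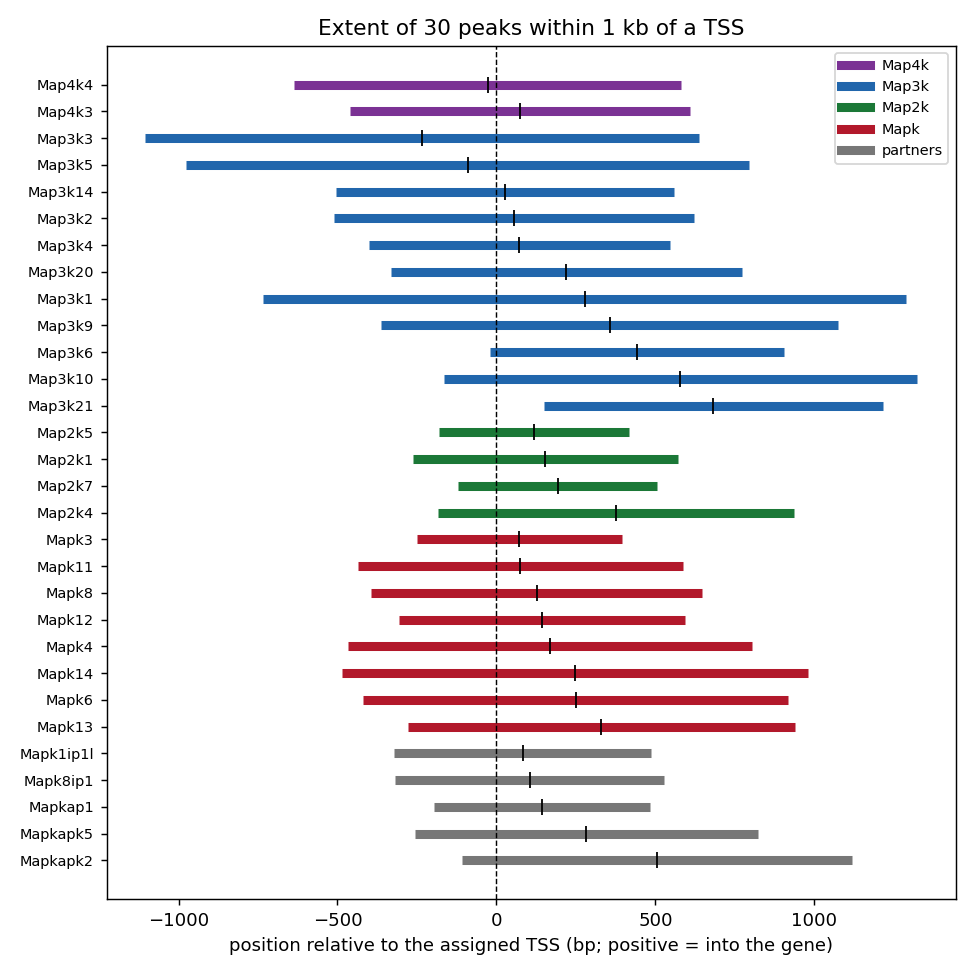
Extent of 30 of the member peaks within 1 kb of a TSS (bars; ticks mark midpoints) relative to the assigned TSS (x axis, bp, positive into the gene), ordered by level and distance (y axis, gene). All but the Map3k21 peak cross the TSS, and the midpoints run from -233 bp at Map3k3 to 682 bp at Map3k21.

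At the top of the cascade, the Map4k genes encode Ste20-like kinases that act upstream of JNK signalling. Map4k4 had a peak of 1218 bp at -28 bp from its TSS (chr1:39957121-39958339) and another of 696 bp in an intron at 35286 bp (chr1:39992696-39993392). Map4k3, linked to amino acid sensing, had a peak of 1070 bp at 74 bp (chr17:81126756-81127826) and a narrow one of 360 bp at -53651 bp (chr17:81180836-81181196). The single peak assigned to Map4k1, a kinase of blood cells, lay 36985 bp downstream of its TSS (chr7:29804474-29805242) and was centred in a coding exon of Ryr1, the skeletal muscle calcium release channel, which lies beyond the end of Map4k1. A peak nearer to the start of Map4k1, at -19783 bp, was assigned to Actn4. Map4k2 and Map4k5 had no assigned peak. For Map4k5, however, a peak midpoint lay 51 bp from an annotated start of the gene and was assigned to its neighbour Atl1.

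Among the Map3k genes, all 4 MEKK genes (Map3k1, Map3k2, Map3k3 and Map3k4), which feed several of the branches, had a single peak each, at 277, 54, -233 and 72 bp from the TSS. The Map3k1 peak, at 2023 bp, was the widest of the 31 start site peaks, and the range of widths in this class was 597 to 2023 bp. The ASK genes, kinases of the oxidative stress response, had peaks at Map3k5 (-91 bp, chr10:19653355-19655127, with a second at 54030 bp in an intron, chr10:19708075-19708649) and Map3k6 (443 bp), and Map3k15 had none. Of 7 mixed lineage kinase genes, Map3k9 (356 bp), Map3k10 (578 bp), Map3k20 (219 bp, chr2:72123425-72124529) and Map3k21 (682 bp) carried one within 1 kb. Map3k11 had its assigned peak at 1233 bp, while another peak lay at -620 bp from its start and was assigned to Pcnx3. The neuronal kinases Map3k12 and Map3k13 had none. The second Map3k20 peak, at -100595 bp (chr2:72022802-72023396), lay in an intron of Rapgef4, whose own GENCODE start was closer, at 5349 bp.

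The remaining MAP3Ks differed among themselves. Map3k14, the NF-κB-inducing kinase, had the member peak closest to a TSS, at 27 bp (chr11:103128156-103129221). Map3k7 encodes TAK1, which is activated by TGF-β, BMP and cytokine receptors, and both of its peaks were distal, at -186764 bp (chr4:31862538-31866099) and -266385 bp (chr4:31784512-31784882). The latter was the farthest of the 49. The former was the widest member peak, at 3561 bp, and no peak lay nearer to the Map3k7 start. Map3k8 and Map3k19 had no assigned peak, and the closest peak of any symbol was 83795 and 162598 bp from an annotated start.

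At the Map2k level, 4 of 7 genes carried a start site peak, meaning here a peak within 1 kb of the TSS. Map2k1, the MEK1 gene of the ERK branch, had one at 154 bp (chr9:64100840-64101676, 836 bp wide), with the midpoint in a UTR. Map2k4, a JNK activator, had one at 376 bp (chr11:65600926-65602044) and a second at -3193 bp (chr11:65604664-65605445), with 3569 bp between the midpoints. Map2k5, the activator of ERK5, had one at 117 bp (chr9:63225244-63225841), the narrowest of the start site peaks at 597 bp. Map2k7, the other JNK activator, had one at 193 bp (chr8:4238621-4239246) in a coding exon. Map2k6, a p38 activator, had 2 distal peaks, 1 in an intron at 23180 bp (chr11:110283438-110283794), the narrowest member peak at 356 bp, and 1 beyond the gene at 207463 bp (chr11:110467483-110468315). Map2k2, which encodes MEK2, and Map2k3, the other p38 activator, had none, and their closest peaks of any symbol lay at -5543 and -53345 bp from the gene start.

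Of the terminal kinases, Mapk3 (ERK1) had a peak at 72 bp (chr7:133902889-133903535), centred in a coding exon. All 4 p38 genes had one, in 2 neighbouring pairs. Mapk11 and Mapk12 carried peaks at 75 bp (chr15:88979451-88980472) and 144 bp (chr15:88970539-88971440), with midpoints 8972 bp apart. Mapk13 and Mapk14 carried peaks at 329 bp (chr17:28905983-28907200) and 247 bp (chr17:28827802-28829267), with midpoints 78057 bp apart. The atypical kinases Mapk4 and Mapk6 had peaks at 168 bp (chr18:74223799-74225071) and 249 bp (chr9:75256907-75258242). Mapk15 had a peak of 1646 bp at 4497 bp (chr15:75827873-75829519), inside its gene of 5384 bp.

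The JNK genes differed in number and position of peaks. Mapk8 (JNK1) had a peak of 1040 bp at 126 bp (chr14:34259698-34260738) and further peaks at 59738 bp (chr14:34164052-34164893) and 91400 bp (chr14:34132180-34133441). The midpoints of these last 2 lay 95746 and 127408 bp from that of the first. Their deposited distances were therefore taken from a different TSS than that of the first peak. The same 2 peaks lay beyond the end of Mapk8 and, by GENCODE, at -26 and -79 bp from starts of Arhgap22. By that annotation, 1 peak remained for Mapk8. Mapk10 (JNK3), the neuronal JNK gene, had a single intronic peak of 907 bp at 66866 bp (chr5:103573034-103573941), and Mapk9 (JNK2) had none. Mapk7, the ERK5 gene, also had none, with its closest peak 82471 bp from an annotated start.

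Among the partners, Mapkapk2 (505 bp) and Mapkapk5 (283 bp), kinases activated by p38, carried start site peaks, as did Mapk8ip1 (104 bp), a JNK scaffold gene, Mapkap1 (143 bp), which encodes the mTORC2 subunit Sin1, and Mapk1ip1l (82 bp). Mapk8ip2, another JNK scaffold gene, had a peak at 3994 bp in a coding exon. Both Mapk1ip1 peaks were distal, at 16112 and 45041 bp, and closer to a GENCODE start of Ppp2r2d. A peak at -264 bp from the Mapk1ip1 start was itself assigned to Ppp2r2d. Mapkapk3, Mapk8ip3, Mapkbp1, Map3k7cl and the antisense transcript Map2k3os had none.

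The dependence of these counts on the closest start was examined. By the closest protein-coding GENCODE start, 44 of 49 peaks kept their symbol, and all 5 that changed lay beyond 10 kb (2 at Mapk8, 2 at Mapk1ip1 and 1 at Map3k20). Peaks of other symbols joined the family by this rule, which then held 52 peaks at 40 genes. The share within 1 kb became 61.5% in the whole family. The share over all peaks was not counted by this rule, and the 38.5% given above rests on the deposited distances. By level, the share by this rule was 50% for Map4k, 55% for Map3k (68.8% as deposited), 57.1% for Map2k, 75% for Mapk and 71.4% for partners. When any peak within 1 kb of an annotated start was counted, whatever its symbol, 34 of 55 family genes had one (61.8%), beside 27.9% of protein-coding genes of GENCODE. The 3 added genes were Map4k5, Map3k11 and Mapk1ip1.

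The centres of the peaks were then described by sequence. Copy number, the median number of genomic occurrences of the 31-mers in the central 200 bp, was 1 at all 31 start site peaks, and 0 of 31 allows a multi-copy share of up to 9.68%, beside 2.62% of all peaks in that class. Over all distances 9 of 49 member peaks (18.4%, interval 9.98% to 31.4%) had at least 2 copies, beside 46.5% of all peaks. Beyond 10 kb it was 8 of 14 (57.1%, interval 32.6% to 78.6%), beside 81.2%. The shares by distance class given above include multi-copy peaks, in the members and in the whole list. The wide Map3k7 peak had a median of 2868.5 copies and the other Map3k7 peak 135.5. The remaining multi-copy centres belonged to Map2k6 at 207463 bp (85.5 copies), Map3k5 at 54030 bp (37 copies), Mapk1ip1 at 45041 bp (27 copies), Mapk10 (22 copies), and, with 3 copies each, Map2k4 at -3193 bp, Map4k4 at 35286 bp and Mapk1ip1 at 16112 bp. How the aligner placed reads at repeated sequence can affect such peaks, and its part in these counts was not tested.

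Centres of distal peaks are shown for contrast with the start sites, as 150 bases of the plus strand of mm9, with a stretch of at least 24 bases that repeats a unit of at most 6 bases in capitals. Map3k7 (chr4:31864243-31864392) is the multi-copy extreme, Map4k3 (chr17:81180941-81181090) has a single-copy centre by the median that contains a simple repeat, and Map4k1 (chr7:29804783-29804932) lies in the Ryr1 coding exon.
Map3k7: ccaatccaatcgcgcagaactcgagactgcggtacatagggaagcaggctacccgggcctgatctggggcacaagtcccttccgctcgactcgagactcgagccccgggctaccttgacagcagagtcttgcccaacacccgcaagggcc
Map4k3: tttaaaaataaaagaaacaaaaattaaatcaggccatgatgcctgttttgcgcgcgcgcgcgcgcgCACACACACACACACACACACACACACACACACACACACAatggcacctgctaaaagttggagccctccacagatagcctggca
Map4k1: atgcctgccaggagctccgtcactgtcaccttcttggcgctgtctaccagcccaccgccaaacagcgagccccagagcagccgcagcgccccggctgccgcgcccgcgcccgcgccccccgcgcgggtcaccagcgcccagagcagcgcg
The Map4k3 window held a CA repeat of 40 bases. The Map4k1 window had a GC content of 75.3%, within the range of the start site windows, against 48.7% at Map4k3.

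Simple repeats in peak centres were counted after the distal sequences had been seen. A stretch of at least 24 bases repeating a unit of at most 6 bases occurred in the central 200 bp of 10 of 49 member peaks, beside 18.6% of all peaks. It occurred in 7 of 14 member peaks beyond 10 kb, beside 29.5% of all peaks there, and in 3 of 31 within 1 kb, Mapk8ip1 and Mapkapk5 among them, beside 2.16%. Examples were 76 bases at Mapk1ip1 (45041 bp), 51 bases at Map2k6 (207463 bp) and 50 bases at Map3k20 (-100595 bp).

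GC content of the central 200 bp followed the distance class. Its median was 74.5% over the 31 member peaks within 1 kb (range 59.5% to 83%) and 60.2% over the 14 beyond 10 kb (range 44% to 78%). All peaks of the list had medians of 74% and 63.5% in the same classes. Map3k5 at its start had the highest value, 83%, and the Map2k6 intron the lowest, 44%. The median over 49 members was 72%, against 45% in flanks on either side, and 66.5% in the centres of all peaks. Median width was 983 bp in members and 947 bp in all peaks, with 1070 bp for member peaks within 1 kb and 800.0 bp for those beyond 10 kb.

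**Figure D4:**
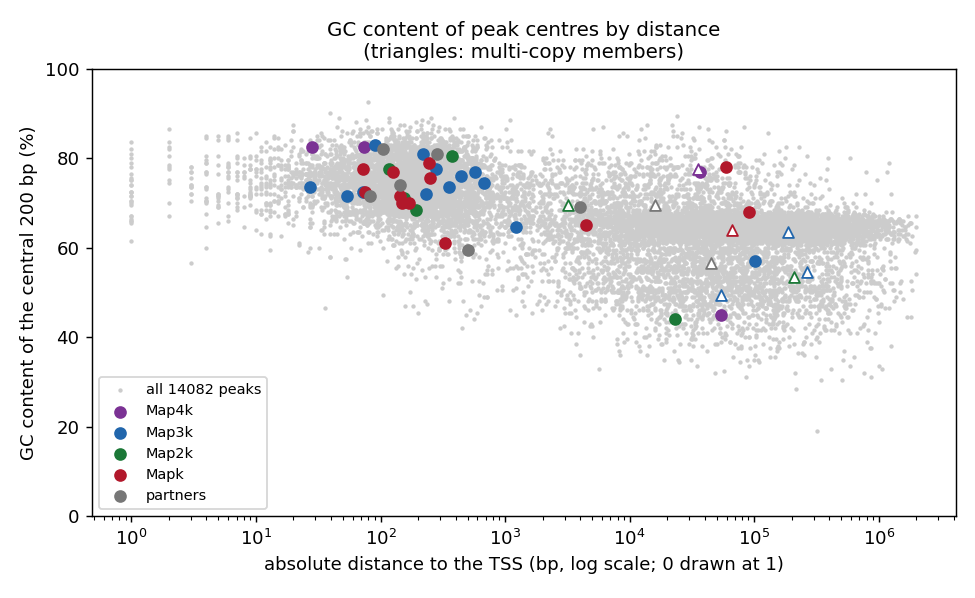
GC content of the central 200 bp (y axis, %) against absolute distance to the TSS (x axis, bp, log scale) for all 14082 peaks (grey) and the 49 members (colours by level; open triangles are multi-copy). Members within 1 kb have a median of 74.5% and members beyond 10 kb of 60.2%.

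Short strings of known factor families were counted in the same 200 bp on both strands. The GC box GGGCGG occurred in 24 of 49 member centres (49.0%, interval 35.6% to 62.5%), beside 42.1% of all peak centres, and in 20 of 31 within 1 kb, beside 65.7% of all peaks in this class. The LIM-homeodomain strings CTAATTG and CTAATGG occurred in 0 of 49, which allows a share of up to 6.12%, beside 0.405% of all centres. The GATA strings (AGATAA or TGATAA, or either of these ending in G in place of the last A) occurred in 2, beside 4.23%. The ETS string CCGGAAG occurred in 1, beside 9.22%, the CCAAT box string ATTGG in 3, beside 12.8%, and the CRE string TGACGTCA in 0, which also allows up to 6.12%, beside 0.241%. For each of these strings, the interval of the member share in the central 200 bp included the share of all peak centres. Over whole peaks this did not hold for GATA, with 15 of 49 members (30.6%, interval 19.5% to 44.5%) beside 45.7% of all peaks. The LIM-homeodomain strings occurred in 0 of 49 whole member peaks, which allows up to 6.12%, beside 5% of all whole peaks.

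Base composition was also read at the gene starts themselves, with or without a peak. The observed to expected CpG ratio of the start ± 500 bp had a median of 0.833 at the 34 family genes with a peak of any symbol within 1 kb (range 0.614 to 1.06) and of 0.708 at the 21 without (range 0.0758 to 1.00). Over all protein-coding genes the medians were 0.799 and 0.407. Of 48 family genes with a ratio of at least 0.6, 34 (70.8%, interval 56.8% to 81.8%) had such a peak, beside 48.7% of the 9790 protein-coding genes of that class. Of the 7 family genes below 0.6, 0 had one (interval 0% to 35.4%), beside 8.56% of protein-coding genes below 0.6. Those 7 were Map3k13, Map3k19, Map2k6, Mapk10, Mapk15, Map3k7cl and Mapkapk3. Several genes with CpG-rich starts had no peak there, among them Map3k7 with a ratio of 1.00 and Map2k2 with 0.804.

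**Figure D5:**
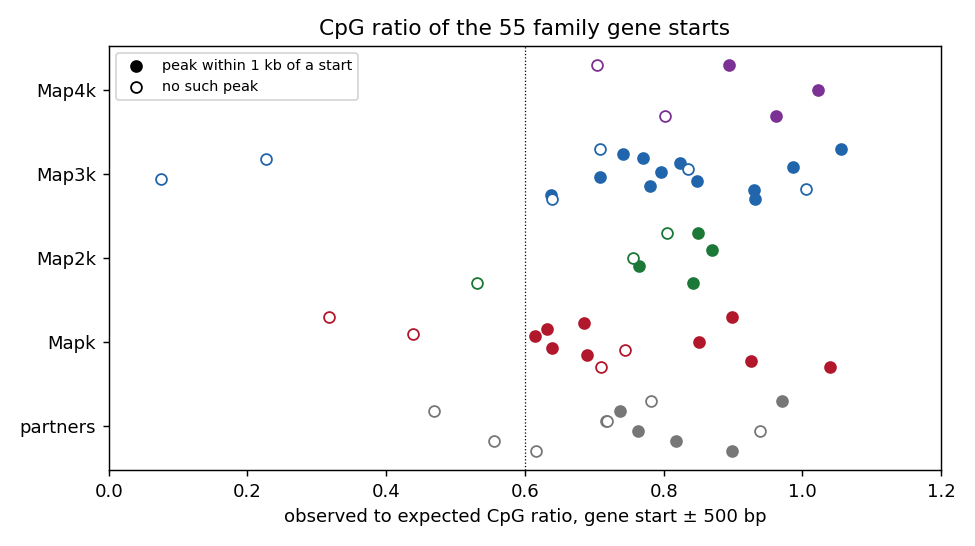
Observed to expected CpG ratio of the gene start ± 500 bp (x axis) for the 55 family genes by level (y axis). Filled points have a peak of any symbol within 1 kb of an annotated start and open points do not; the dotted line is at 0.6. All 34 filled points lie to the right of the line, as do 14 open ones.

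Other genes of the pathway were counted from 7 lists with 109 genes outside the family. Of these, 71 (65.1%, interval 55.8% to 73.4%) had an assigned peak and 62 (56.9%) had one within 1 kb, beside 37.5% and 23.2% of protein-coding genes. Upstream, 13 of 20 genes of Ras and Raf entry had a peak, with start site peaks at Hras, Sos1, Grb2 and Ptpn11 among others, whereas Braf had a farther peak only. Of other upstream kinases and TAB adaptors, 9 of 14 had one. Among the adaptors of TAK1, Tab1 and Tab2 had start site peaks and Tab3 had no assigned peak. Downstream, 6 of 9 kinases activated by MAP kinases had one, all with a start site peak, including Rps6ka1 to Rps6ka5. Among transcription factors phosphorylated by MAP kinases the count was 15 of 20, with Jun, Junb, Egr1, Srf and Mef2a at their starts and Mef2c, a regulator of heart development, at a distance only. Negative regulators were counted as 12 of 17 MAP kinase phosphatases and 11 of 16 Sprouty, Spred and Ras GAP genes. Here Dusp4, Dusp6, Spry2 and Spry4 had farther peaks only, and Dusp1, Dusp5, Spred1 and Nf1 had start site peaks. For the scaffolds the count was 5 of 13 (38.5%, interval 17.7% to 64.5%), beside the 37.5% of protein-coding genes. The intervals of the lists overlapped, so their order is not resolved.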

How the data were processed

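Per the methods of the study and the submitters' processing notes, the authors aligned reads to mm9 with Bowtie2, removed duplicates with Picard 1.136, called peaks with MACS without a fragment model, dropped blacklisted regions, kept areas common to both replicates with bedtools 2.15 and assigned each to the closest TSS with HOMER. The deposited values are coordinates and signed distances in bp, with no score or count. Duplicate removal and the requirement of both replicates can leave out weaker peaks.

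Here, 14165 lines gave 14082 distinct peaks, and 0 ran past a chromosome end of NCBI m37, the mm9 sequence. Whether the list numbers bases from 0 or 1 is not given, which leaves 1 bp of doubt in each start. Positions came from GENCODE, and gene names from RefSeq for GRCm38, of which no coordinates were used. For the shares over all protein-coding genes, 263 older names were brought to current symbols and 19 names were unmatched. GENCODE lists Map3k21 as BC021891, matched by its identical start distance. One listed upstream kinase name was a synonym of Map3k20 and was counted only as a member.

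No test was run: with 1 combined list there is no replicate to test. Shares carry 95% Wilson intervals. The count of simple repeats was added after the sequences were seen. A share of 0 among peaks is given with the limit that 3 counts set, and among genes with its interval. k-mer counting was tested on simulated sequence. The naming rule took every family gene with a peak, with positions for genes with most peaks, Map2k and Mapk start site peaks, and the extremes of width and distance. Some genes and sequences that the rules select are not reported here, although counts include them. The members, lists and naming rule were chosen with earlier results of these data known. Alternatives were other boundaries, peak filters, annotations, window sizes and k-mer lengths. Scripts ran in Python 3.11.15 with numpy 2.4.6, pandas 2.3.3 and scipy 1.17.1.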

Additional observations from a re-analysis of the deposited data

How the results depend on the processing

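No paired analysis was possible because both replicates were combined in 1 list, and for the same reason no replicate could be left out. Of 106 alternative values for 29 results, 89 stayed within the 95% counting interval of the reported value or, for counts, within 1.5 times of it. At small levels this interval was wide, so staying within it says little. For the 5 Map4k genes it ran from 23.1% to 88.2%, and a fall from 60% to 40% stayed within it. The cause of the 17 moved values was not tested beyond their construction. Requiring at least 2 peaks lowered the share of genes to 16.4% in the whole family, 16.7% for Map3k, 28.6% for Map2k, 7.69% for Mapk and 8.33% for partners, beside 10.6% of protein-coding genes, and requiring a peak within 1 kb gave 56.4% for the whole family. Over all 55 genes, with zeros, there were 0.891 peaks per gene. Single-copy peaks alone raised the share within 1 kb to 77.5%. The 38.5% of all peaks is not its comparison, because it includes multi-copy peaks. This filter takes 142 of the 5416 peaks within 1 kb from the whole list, but 6545 of all 14082 peaks. The share over all peaks therefore rises under it as well. Multi-copy centres made up 81.2% of all peaks beyond 10 kb, against 2.62% of all peaks within 1 kb. With 75-mers the multi-copy share of members was 2.04%, which was the wide Map3k7 peak, and the share over all peaks was not counted. Over whole peaks median GC content was 66.5%, and the strings were found in 30.6% (GATA), 77.6% (GC box), 12.2% (ETS) and 40.8% (CCAAT box) of members, beside 45.7%, 64.3%, 23.5% and 49.1% of all peaks. In the central 100 bp they were found in 0% (GATA), 34.7% (GC box) and 0% (ETS) of members, where 0 of 49 allows up to 6.12%. Shares over all peaks were not counted in this window, so these values cannot be called particular to the members. The count of start site peaks of any symbol was added after seeing the data.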
